A study of Homo sapiens with 4 samples.

Results

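CD74 and 7 genes of the major histocompatibility complex (MHC) class II pathway were followed in 4 RNA-seq libraries of the human glioblastoma cell line U87MG. The 8 genes are CIITA, CD74, HLA-DRA, HLA-DRB1, HLA-DPA1, HLA-DPB1, HLA-DMA and HLA-DMB, out of 29387 genes listed for all 4 libraries. They were chosen by name, with their counts and their differences between invasive and control populations already known, so those differences are given below as a description. In the study, parental U87MG cells spent 1 week on organotypic brain slices, thin pieces of brain tissue that are kept alive in a dish. The medium was a neural stem cell medium with the growth factors FGF and EGF. Cells that had invaded the slices and poorly invasive control cells were isolated, then expanded in vitro for 3 to 5 days before RNA was taken; the labels give DMEM with 10% FBS as the medium in which the line was grown. There were 2 invasive populations (invasive 1 and 2, which the labels call clones) and 2 controls (control 1 and 2), each with 1 library, and the design text sets invasive 1 against control 1 (pair 1) and invasive 2 against control 2 (pair 2).

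All groups share the U87MG background and the time on slices, and the labels name no genetic change or drug that separates them. The sources used here do not name the species that gave the slices. With 1 library per population, differences between cultures of the same population were not measured, and p-values rest on the spread between these 4 libraries.

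MHC class II molecules are pairs of an alpha and a beta chain that carry peptides from the endosome to the cell surface, where CD4 T cells read them. CIITA is the master transactivator of these genes: it does not bind DNA itself but is held at their promoters by the factors RFX, CREB and NF-Y, and interferon-gamma induces it in cells that are not professional antigen-presenting cells. CD74, the invariant chain, escorts newly made class II pairs and blocks their groove until endosomal proteases such as cathepsin S cut it, after which HLA-DM exchanges its last fragment for a peptide. CD74 is also a surface receptor for the cytokine MIF. In brain, class II is best known from microglia and infiltrating leukocytes, and glioma cells can carry it as well.

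CD74 lies on chromosome 5 (150401637 to 150412929) and CIITA on chromosome 16 (10877198 to 10932281) in the GRCh38 coordinates of the files. The other 6 genes lie in the class II region of chromosome 6, from HLA-DRA (start 32439842) to HLA-DPB1 (end 33087201). HLA-DPA1 (33064569 to 33080775) and HLA-DPB1 (33075926 to 33087201) overlap on opposite strands, HLA-DMA overlaps BRD2, HLA-DRB1 overlaps the pseudogene HLA-DRB6, and CIITA overlaps DEXI. The libraries were made with a strand-specific kit, but the sources used here do not say if the counting was strand-aware. HLA-DRB1 and HLA-DRB5 are near-identical and highly polymorphic genes, so reads could be split or lost between them, and their counts are uncertain.

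The promoters of 6 of the 8 genes were found in the RefSeq promoter table (GRCh38.p14). The 120 bases before the annotated start are shown for 5 of them, because class II promoters are known for a shared X box and Y box and the genes below differ in how they behaved in pair 2. Capitals mark TGATGA and the Y box core, ATTGG or its reverse complement CCAAT; these letters were chosen after the sequences had been read.
CD74 (chr5:150412911-150413030, minus strand): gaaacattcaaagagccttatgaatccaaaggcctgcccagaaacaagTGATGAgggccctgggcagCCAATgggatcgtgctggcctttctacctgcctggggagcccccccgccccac
HLA-DRB1 (chr6:32589849-32589968, minus strand): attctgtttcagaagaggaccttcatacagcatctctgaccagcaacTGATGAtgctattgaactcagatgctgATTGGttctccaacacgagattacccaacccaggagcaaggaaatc
HLA-DMA (chr6:32953098-32953217, minus strand): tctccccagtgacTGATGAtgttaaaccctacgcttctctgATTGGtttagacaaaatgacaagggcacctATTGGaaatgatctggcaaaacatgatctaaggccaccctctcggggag
HLA-DMB (chr6:32941029-32941148, minus strand): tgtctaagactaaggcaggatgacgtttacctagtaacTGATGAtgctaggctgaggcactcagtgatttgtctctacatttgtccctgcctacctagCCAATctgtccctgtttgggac
HLA-DPB1 (chr6:33075870-33075989, plus strand): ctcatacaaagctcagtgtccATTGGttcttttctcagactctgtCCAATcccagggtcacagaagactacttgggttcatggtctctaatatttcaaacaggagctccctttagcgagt

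In 4 of the 6 promoters, those of CD74, HLA-DRB1, HLA-DMA and HLA-DMB, TGATGA stood upstream of ATTGG or CCAAT with 10 to 60 bases between them. The distance was 13 bases in CD74, 21 in HLA-DRB1, 22 in HLA-DMA and 54 in HLA-DMB. Because the letters were chosen on these sequences, the shares that follow are given as a description. Among all 35116 promoters of the table, 0.162% held this ordered pair within the same 120 bases. Either letter string alone was common: ATTGG or CCAAT was in 20.4% of them, and TGATGA or TCATCA in 4.64%. HLA-DPB1 held 2 of the Y box cores and no TGATGA, and neither HLA-DPA1 window held either string. HLA-DMA and CD74 both held the ordered pair. CD74 was lower in invasive 2 than in control 2, and HLA-DMA was not. The part of these strings in the levels was not tested. A match of letters is a description of the sequence, not evidence that a factor binds there.

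The libraries held 13829871 to 17817756 counts, and levels are given as counts per 1000000 counts (CPM) after TMM scaling of the library sizes. A level of 3 counts, the limit that a count of 0 allows, was 0.171 to 0.217 CPM, and covers counting error only. All 8 genes passed the filter on low counts, with between 31 and 2518 counts in every library, so each was detected in all 4. Summed over the 8 genes, the level was 397 CPM in control 1 and 400 CPM in invasive 1, then 303 CPM in control 2 and 162 CPM in invasive 2. The pair 1 libraries were level, and invasive 2 held 0.534 of the summed level of control 2. In bulk RNA, fewer cells expressing a gene and less RNA of it per cell cannot be told apart.

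**Figure D1:**
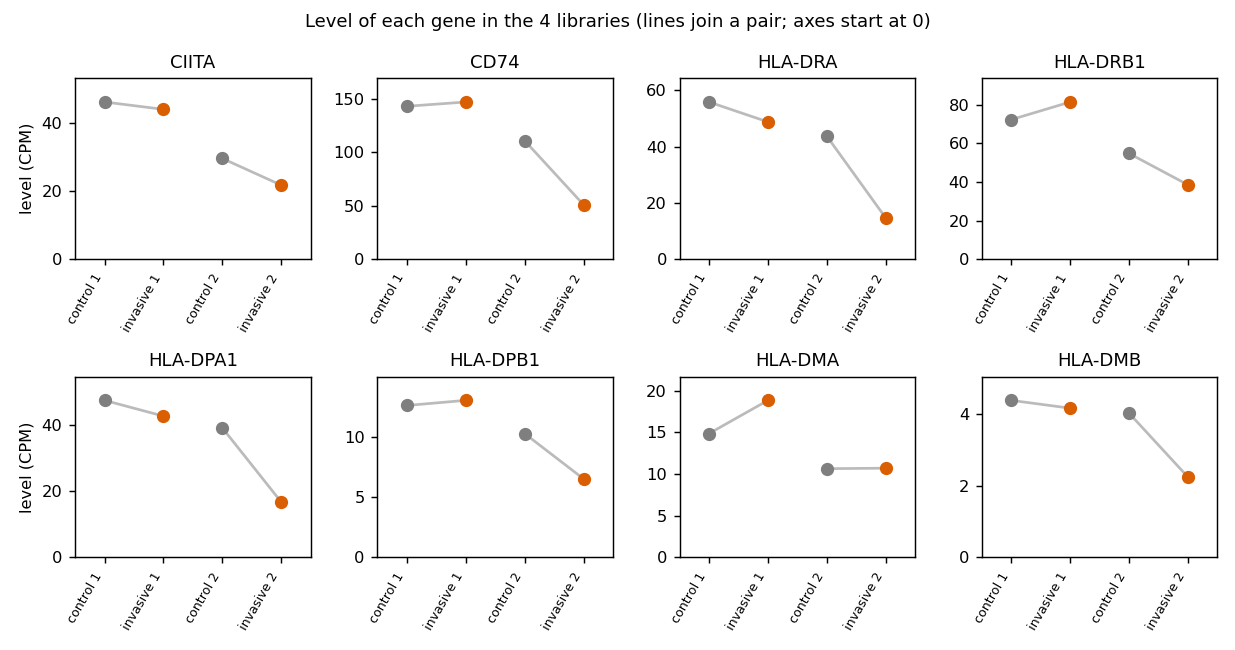
Level in CPM (vertical axes, each from 0) of the 8 genes in each library (grey, control; orange, invasive), with 1 point per library and a line joining each pair. Both pair 2 libraries lie below both pair 1 libraries in all 8 panels, and invasive 2 is the lowest point in 7 of them, HLA-DMA being the exception.

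CIITA, the transactivator, had 46.1 CPM in control 1 and 43.9 in invasive 1, then 29.5 in control 2 and 21.7 in invasive 2. The pair 1 libraries were nearly level and both stood above pair 2. Within pair 2 the ratio of invasive to control was 0.735 (95% counting interval 0.633 to 0.852), and within pair 1 it was 0.953 (0.860 to 1.06). Such an interval compares 1 library with 1 library and covers counting error only. Gene-level counts do not separate the CIITA transcripts that start at different promoters.

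CD74 was the most abundant of the genes, with 143 CPM in control 1 and 147 in invasive 1, then 111 in control 2 and 51.0 in invasive 2. Only the invasive 2 library stood far from the rest: its level was 0.459 of control 2 (0.420 to 0.501), which is 2.18-fold lower, while pair 1 differed by 0.04 on the log2 scale. CD74 counts were 3.11 times those of CIITA in control 1 and 3.35 times in invasive 1, then 3.76 times in control 2 and 2.35 times in invasive 2. The lowest ratio was in the library where both genes were lowest.

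HLA-DRA, the nearly invariant alpha chain of HLA-DR, had 55.8 CPM in control 1 and 48.7 in invasive 1, then 43.7 in control 2 and 14.6 in invasive 2. It had the largest difference of the 8 genes within pair 2, 2.99-fold lower in invasive 2 (ratio 0.334, interval 0.284 to 0.392). In pair 1 the ratio was 0.873 (0.793 to 0.961), in the same direction and much smaller. Its polymorphic partner HLA-DRB1 had 72.4 CPM in control 1 and 81.5 in invasive 1, then 54.8 in control 2 and 38.5 in invasive 2. HLA-DRB1 was higher in invasive 1 than in control 1 (ratio 1.13, 1.04 to 1.22) and lower in invasive 2 than in control 2 (0.703, 0.629 to 0.784). By count, HLA-DRA had 0.771 counts per HLA-DRB1 count in control 1 and 0.598 in invasive 1, then 0.796 in control 2 and 0.379 in invasive 2. Against the other DR beta chain, HLA-DRB5, the ratio stayed between 0.953 and 1.12 in the 4 libraries. The pair 2 ratio of HLA-DRB5 was 0.361 (0.307 to 0.422), an interval that overlaps that of HLA-DRA.

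HLA-DPA1, the alpha chain of HLA-DP, had 47.6 CPM in control 1 and 42.8 in invasive 1, then 39.3 in control 2 and 16.8 in invasive 2. Invasive 2 again stood apart, 2.34-fold below control 2 (ratio 0.427, 0.366 to 0.498), and pair 1 had a ratio of 0.90 (0.812 to 0.997). HLA-DPB1, the beta chain, was less abundant, with 12.6 CPM in control 1 and 13 in invasive 1, then 10.3 in control 2 and 6.50 in invasive 2. Its pair 2 ratio of 0.635 (0.484 to 0.827) was nearer to 1 than that of HLA-DPA1. The 2 DP genes overlap, and their reads may not be fully separated.

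HLA-DMA and HLA-DMB encode the chains of HLA-DM, the peptide editor. HLA-DMA had 14.8 CPM in control 1 and 18.8 in invasive 1, then 10.6 in control 2 and 10.7 in invasive 2. It was the exception among the 8: the pair 2 libraries were level (ratio 1.005, 0.800 to 1.26) and invasive 1 was above control 1 (1.27, 1.07 to 1.5). HLA-DMB was the scarcest gene, with 4.38 CPM in control 1 and 4.16 in invasive 1, then 4.02 in control 2 and 2.24 in invasive 2, the last from 31 counts. Its pair 2 ratio of 0.557 had a wide interval (0.350 to 0.871). HLA-DMA had 3.39 counts per HLA-DMB count in control 1 and 2.65 in control 2, against 4.52 in invasive 1 and 4.77 in invasive 2.

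**Figure D2:**
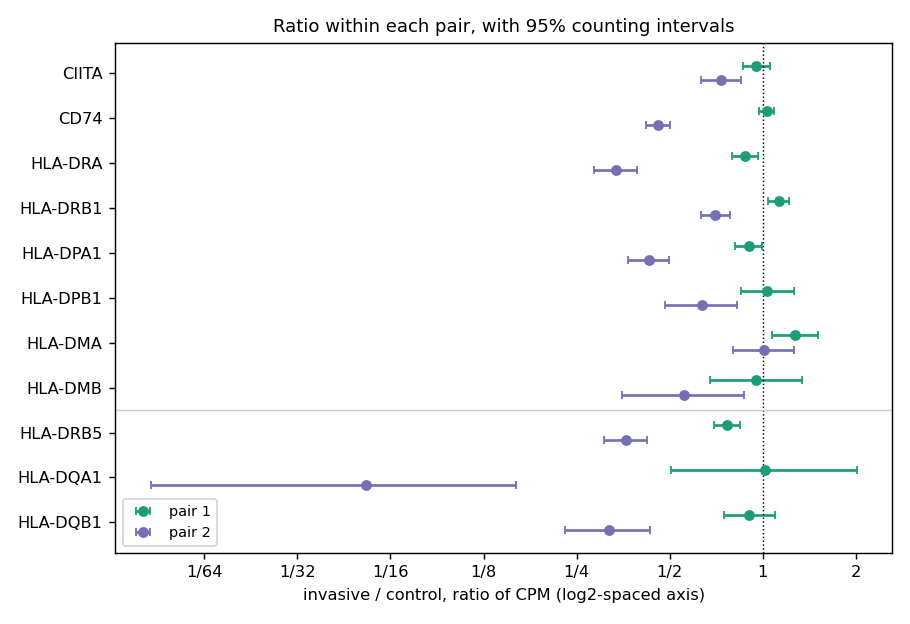
Ratio of CPM, invasive over control, on a log2-spaced axis for pair 1 (green) and pair 2 (purple), with bars for the 95% counting interval of 1 library against 1 library. Above the grey line are the 8 genes, and below it 3 further class II chains. In pair 2, the interval lies wholly below 1 for every gene but HLA-DMA.

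Per kilobase of the main annotated transcript, CD74 led in every library, at 146 CPM per kb in control 1 and 51.9 in invasive 2. Next came HLA-DRB1, at 58.9 and 31.3 CPM per kb in the same 2 libraries, HLA-DRA, at 43.6 and 11.4, and HLA-DPA1, at 28 and 9.84. HLA-DMA (13.2 and 9.53), HLA-DPB1 (8.06 and 4.17) and HLA-DMB (3.14 and 1.60) were below them. The order of these 7 genes was the same in control 1 and invasive 2, and the closest neighbours in invasive 2 were HLA-DPA1 and HLA-DMA. CIITA is left out of this order because its annotated main transcript, 16059 bases, may not be the transcript that was measured.

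Over the 2 pairs, 4 of the 8 genes (CIITA, HLA-DRA, HLA-DPA1 and HLA-DMB) were lower in the invasive library both times, beside 31.9% of the 14231 genes tested. HLA-DMA was higher both times, its pair 2 difference being 0.01 on the log2 scale. Both invasive libraries lay below both controls for 0 of the 8 genes, against 21.6% of all tested genes. In pair 2, 3 of 8 (CD74, HLA-DRA and HLA-DPA1) were at least 2-fold lower, beside 2.07% of tested genes, and in pair 1 none was, beside 0.97%. The median log2 difference of the 8 genes was −0.01 in pair 1 and −0.73 in pair 2, and that of all tested genes was 0.00 and 0.01. Because the genes were picked with these differences in view, the shares are set side by side and nothing is read from them.

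In the fit over all 14231 genes (edgeR quasi-likelihood F test, blocked by pair), 0 of the 8 genes passed an adjusted p of 0.05 in either direction. Across all genes, 0.239% were called higher in invasive populations and 0.0351% lower. At an unadjusted p under 0.05 the count was also 0 of 8, beside 9.82% of all tested genes higher and 8.41% lower, and DESeq2 with the same block called 0. Fitted log2 fold changes ran from −0.84 ± 0.44 (SE) for HLA-DRA to 0.18 ± 0.17 for HLA-DMA, with edgeR adjusted p-values of 0.357 to 0.680. CD74 had −0.53 ± 0.37 (edgeR adjusted p = 0.551) and CIITA −0.25 ± 0.13 (edgeR adjusted p = 0.374). Their median was −0.35, beside 0.01 over all tested genes. Libraries were also left out 1 at a time in fits without the block, where the median was −0.29 with all 4 libraries. It was then 0.20 without invasive 2, with 3 of 8 values below 0, and −0.86 without invasive 1. Without control 1 it was −0.11, and without control 2 −0.47. Such a fit also takes in the difference between the pairs.

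Levels of the 8 genes also differed between the pairs. Both pair 2 libraries lay below both pair 1 libraries for 8 of the 8 genes, beside 19% of tested genes, and invasive 2 was the lowest of the 4 for 7 of 8, beside 27%. Between the controls alone, 8 of 8 were lower in control 2 than in control 1, beside 7285 of the 14231 tested genes. The differences of the 8 were 0.12 to 0.64 on the log2 scale. The pair term of the same edgeR fit, read after these values had been seen, was between −0.47 and −1.0 for the 8 genes (pair 2 minus pair 1), with adjusted p-values of 0.108 to 0.500. It called 0 of the 8, beside 0.0422% of tested genes called lower in pair 2. At an unadjusted p under 0.05 it held 4 of the 8, all lower in pair 2, and 14.8% of all tested genes, counted in either direction. What else separated the pairs besides the populations themselves is not in the labels, and its part in these values was not tested.

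Further class II chains, outside the 8, were read in the same way. HLA-DRB5, a second DR beta chain, had 56.8 CPM in control 1 and 43.4 in invasive 1, then 42.5 in control 2 and 15.3 in invasive 2 (fitted log2 fold change −0.89 ± 0.31, edgeR adjusted p = 0.280). HLA-DQB1, the beta chain of HLA-DQ, had 14.4, 13, 12.1 and 3.83 CPM in the same order (−0.81 ± 0.39, edgeR adjusted p = 0.360). Both were lowest in invasive 2, as HLA-DRA was. HLA-DQA1, the DQ alpha chain, had 20 counts in control 1 and 18 in invasive 1, then 64 in control 2 and 3 in invasive 2, so it alone of these 3 tested chains was highest in control 2. Its pair 2 ratio of 0.0522 had a counting interval of 0.0105 to 0.160. HLA-DOA, a chain of the HLA-DM inhibitor HLA-DO, had 9 counts in each control, 0 in invasive 1 and 1 in invasive 2, and HLA-DOB had 1 to 5 counts. Both were too low to test, and HLA-DQB2 had no count in any library.

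On chromosome 6 the class II genes surround genes of other function. Between the start of HLA-DRA and the end of HLA-DPB1, 9 class II chains were tested and 6 other genes, of which PSMB8-AS1 is antisense to PSMB8. The pair 2 log2 difference had a median of −1.22 over the 9 chains and −0.37 over the other 6. It was below 0 for 8 of 9 and 4 of 6, beside 48.9% of all tested genes. Of the 9 chains, 6 are among the 8 genes picked with these differences in view, so the 2 sets are described and not compared by a test. The part of chromosome position was not tested. TAP1, a subunit of the class I peptide transporter, had a pair 2 difference of 0.15, and BRD2, a bromodomain protein whose gene overlaps HLA-DMA, had 0.13. TAP2 and PSMB8, on the same stretch, had −0.36 and −0.48. CD74 and CIITA, on other chromosomes, had −1.12 and −0.44.

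By a rule that compares the shape of log2 CPM over the 4 libraries, each gene was set against 12295 protein-coding genes, with the root mean square difference as the measure of likeness. HLA-DRA was most like HLA-DQB1 (0.0358), then HLA-DRB5 (0.0886) and PPL (0.101). CD74 was most like AGER (0.0410) and FHL3 (0.0465), with HLA-DPA1 next (0.102). CIITA was nearest to LYSMD1 (0.0406), HLA-DRB1 to SP140 (0.0226), HLA-DPB1 to PLEKHA4 (0.0376), HLA-DMA to GNB3 (0.0204) and HLA-DMB to ALKBH6 (0.0363). HLA-DPA1 had ADAM8 (0.100) and CD74 as its closest. Class II genes or CD74 were thus among the 3 nearest for CD74, HLA-DRA and HLA-DPA1. For the other 5 genes, neither was. With only 4 libraries, many unrelated genes share a shape, and these neighbours are a description.

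The factors that hold CIITA at the promoter and the coactivators CREBBP, EP300 and KAT2B that it recruits were all measured, and 0 of 11 were called in either direction (median fitted log2 fold change −0.10; edgeR). RFX5, the DNA-binding subunit of RFX, had 1326 counts in control 1 and 987 in invasive 1, then 1048 in control 2 and 550 in invasive 2. It was lowest in invasive 2 (log2 difference −0.25 in pair 1 and −0.77 in pair 2, fitted −0.51 ± 0.14), and its edgeR adjusted p was 0.163. The other RFX subunits, RFXAP and RFXANK, had fitted values of −0.11 and 0.08. ATF1, a factor of the CREB family, had −0.31, the acetyltransferase KAT2B −0.29 and the coactivator CREBBP 0.12. NFYC, an NF-Y subunit, had 0.12 in pair 1 and −0.26 in pair 2. A difference below 0 was seen for 4 of the 11 in pair 1, beside 49.5% of tested genes, and for 9 of the 11 in pair 2, beside 48.9%.

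Interferon-gamma signalling, the usual inducer of CIITA, had 0 of 10 tested genes called (median −0.08; edgeR), and IFNG itself was not analysed here. Fitted log2 fold changes were −0.16 for the receptor chain IFNGR1, 0.11 for IFNGR2, 0.00 for the kinase JAK1 and −0.11 for JAK2. IRF1, which acts on a CIITA promoter, had 0.23. IRF2, a related factor, had −0.14, and PTPN2, a phosphatase that dampens the pathway, had −0.33. SOCS1, a feedback inhibitor, had 19 counts in control 1 and 23 in invasive 1, then 33 in control 2 and 18 in invasive 2. Its log2 differences were 0.41 in pair 1 and −0.67 in pair 2, and both counting intervals of the ratio held 1 (0.710 to 2.65 and 0.322 to 1.11). None of these genes passed the test, so none is counted as a change.

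Targets of interferon-gamma outside the MHC had 0 of 7 tested genes called, with a median of 0.04 (edgeR). The chemokines CXCL9, CXCL10 and CXCL11 and the enzyme IDO1 had 0 or 1 count in each library. ICAM1, an adhesion molecule, had 143 counts in control 1 and 125 in invasive 1, then 229 in control 2 and 62 in invasive 2 (fitted −0.85). CD274, which encodes PD-L1, had −0.51, the tRNA synthetase gene WARS 0.25, the immunoproteasome subunit PSMB10 0.30 and the GTPase GBP5 0.58. The GTPases GBP1 and GBP2 were well measured, with 250 to 336 and 154 to 296 counts. The list thus held genes at or near 0 and genes with many counts in the same libraries. Whether the class II levels depended on interferon-gamma was not tested.

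In the endosomal pathway, 0 of 11 tested genes were called (median 0.10; edgeR). CTSS, cathepsin S, which trims CD74, had 683 counts in control 1 and 659 in invasive 1, then 1694 in control 2 and 498 in invasive 2. It was high in control 2 alone, with log2 differences of 0.12 (pair 1) and −1.61 (pair 2). CTSL, cathepsin L, had a fitted value of −0.27, CTSB −0.20, CTSD 0.27, the asparaginyl endopeptidase LGMN 0.37 and the adaptor subunit AP2A1 0.19. CTSZ had −0.56 in pair 1 and 0.27 in pair 2. IFI30, a reductase of the endosome, had 6 to 10 counts and was not tested.

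For the ligand and partners of CD74, 0 of 4 tested genes were called (edgeR). MIF, its ligand, had a fitted log2 fold change of 0.07, and the related DDT had 0.01. CD44, which transmits the signal of the MIF-bound receptor, had 38230 counts in control 1 and 24032 in invasive 1, then 33388 in control 2 and 24272 in invasive 2 (−0.40 ± 0.11, edgeR adjusted p = 0.158). CD44 was lower in both invasive libraries than in both controls, by count and by CPM. By CPM, the same held for 21.6% of all tested genes. CXCR4, another partner of CD74, had 0 to 2 counts and CXCR2 had none, while ACKR3 had 50, 42, 23 and 148 counts in the 4 libraries in the same order.

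MHC class I, the other arm of antigen presentation, had 0 of 12 genes called, with a median of 0.05 in the fit and −0.08 in pair 2 (edgeR). Its transactivator NLRC5 had 0.04, the light chain B2M 0.07, and the heavy chains HLA-B and HLA-E −0.04 and 0.16. TAP2, PSMB8 and PSMB9 had −0.37, −0.36 and −0.08. Summed over the 12 genes, class I stood at 2278 CPM in control 1 and 2588 in invasive 1, then 2508 in control 2 and 2419 in invasive 2. The class I sum in pair 2 had a ratio of 0.964, beside 0.534 for the 8 class II pathway genes. The difference between these ratios was not tested. Most of the class I sum was B2M, with 1438 CPM in control 2 and 1379 in invasive 2. By gene, 8 of the 12 were lower in invasive 2 than in control 2, beside 48.9% of all tested genes. Of the co-stimulatory genes, 0 of 4 were called (edgeR), CD40 having −0.27, ICOSLG 0.12 and CD276 0.06, and CD80 and CD86 had 0 to 4 counts.

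Over all these pathway lists and the further class II chains, 62 genes were tested and 0 were called by edgeR, and DESeq2 with the block also called 0. At an unadjusted p under 0.05, 3 of the 62 were higher and 8 lower in edgeR, beside 9.82% and 8.41% of all tested genes. Their edgeR adjusted p-values ran from 0.158 to 0.996.

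**Figure D3:**
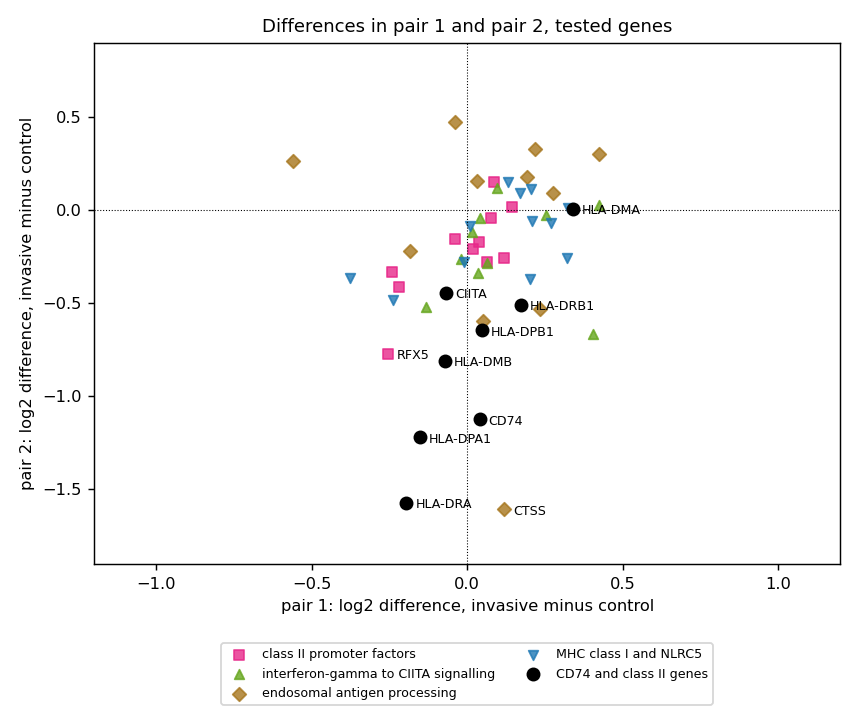
Log2 difference, invasive minus control, in pair 1 (horizontal axis) and pair 2 (vertical axis) for the 8 genes (black) and the tested genes of 4 lists, 1 point per gene. The black points spread along the vertical axis from 0.01 (HLA-DMA) to −1.57 (HLA-DRA) at pair 1 values between −0.20 and 0.34, and CTSS lies beside HLA-DRA.

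Because class II is a hallmark of leukocytes, markers of other cell types were read in the same libraries. The B cell markers measured, 4 of 6 listed, had at most 5 counts each, and their sum was 0 to 0.434 CPM. Among 11 of 16 microglia and macrophage markers measured, PTPRC (CD45) had 0 or 1 count, SPI1 (PU.1) 0 or 1, ITGAM (CD11b) 2 to 8, and P2RY12 none. The summed level of that list was 27.8 CPM in control 1 and 36.6 in invasive 1, then 19.0 in control 2 and 22.0 in invasive 2. It came mainly from CSF1R, with 379, 280, 167 and 140 counts, and TMEM119, with 39, 221, 48 and 99 counts. In pair 2 these markers went different ways. TMEM119 was higher in invasive 2 than in control 2 (ratio of CPM 2.30, counting interval 1.61 to 3.31). CD68 (1.27, 0.679 to 2.40) and CD14 (1.39, 0.300 to 7.02) were higher too, with intervals that held 1. CSF1R (0.934, 0.741 to 1.18), ITGAM (0.279, 0.0288 to 1.40) and FCER1G (0.428, 0.120 to 1.28) were lower, also with intervals that held 1. The part of these markers in the class II values was not tested. CD68 had 21 to 38 counts, LAPTM5 12 to 32, and AIF1 was not analysed here, nor was MS4A1.

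Dendritic cell markers summed to 24.3 CPM in control 1 and 19.4 in invasive 1, then 29 in control 2 and 14.2 in invasive 2, over 6 of 8 listed genes. FLT3 and LAMP3 had no count. The sum came mainly from ITGAX (CD11c), an integrin also expressed outside dendritic cells, with 278, 180, 302 and 127 counts, and BATF3, with 126, 93, 139 and 65. These 2 genes were lowest in the library where the class II genes were lowest, and their part in the result was not tested. Endothelial markers summed to 1.49 to 3.81 CPM, with CLDN5 at 0.

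Of the glioma and astroglial genes, the mesenchymal filament VIM had 113467 to 145137 counts and NES, nestin, 217 to 739. GFAP, the classical astrocyte filament, had 2 to 4 counts, SOX2 0 or 1, and AQP4 none. SLC1A3, a glial glutamate transporter, had 297 to 594 counts and CHI3L1, a secreted glycoprotein of mesenchymal glioma, 775 to 2665. Of this list, VIM, NES, CD44, SLC1A3 and CHI3L1 were thus well measured, while GFAP, SOX2 and AQP4 were at or near 0 in all 4 libraries. OLIG2 had 9 to 31 counts, S100B 0 to 3 and ALDH1L1 1 or 2. Whether these values meet the label of a glioblastoma line was not tested.

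**Figure D4:**
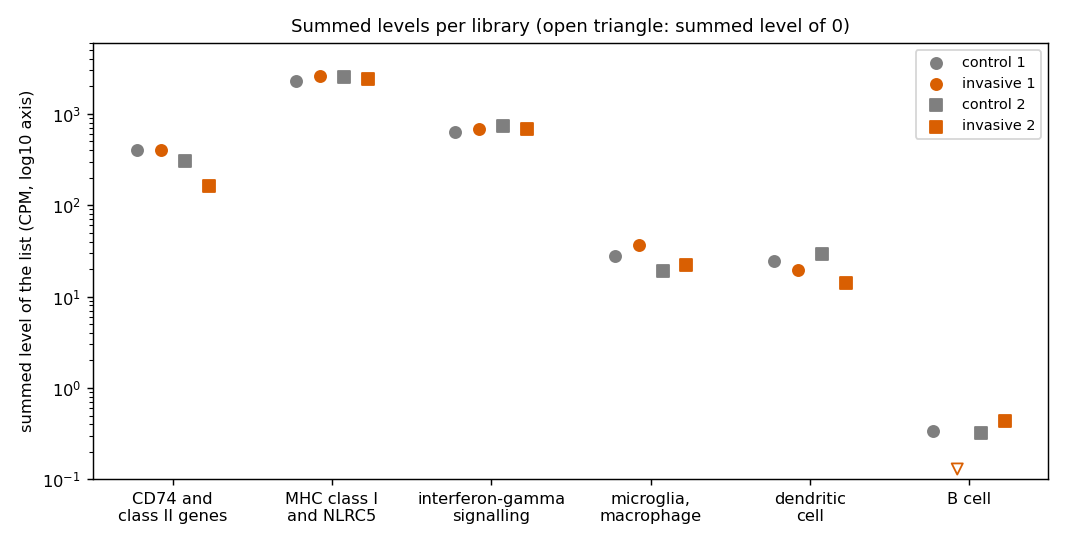
Summed CPM of 6 gene lists (log10 axis) in each library (circles, pair 1; squares, pair 2; grey, control; orange, invasive), with 1 point per library. The class II pathway sum runs from 162 to 400 CPM, while the B cell sum stays at or below 0.434 CPM, with the open triangle at 0 for invasive 1.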

How the data were processed

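The authors deposited raw read counts, whole numbers for each Ensembl gene. The submitters' processing notes name GRCh38 and, with no role or order, HTSeq, Bowtie, TopHat2 2.0.12, DESeq2 and bcl2fastq 1.8.4. The second deposited file holds a normalized value that the authors rounded, a score of unknown method, used in 1 alternative. Genes passing edgeR's filterByExpr (minimum count 10, minimum total 15) were tested: 14231. The test was edgeR's two-sided quasi-likelihood F test (edgeR 4.0.16, limma 3.58.1, R 4.3.3) blocked by pair, with TMM factors and p-values adjusted by Benjamini-Hochberg at 0.05. It has 1 residual degree of freedom, so spread leans on the prior (5.45 degrees of freedom). The pairing comes from the design text; same-numbered libraries deviated together across genes (r = 0.283). Within-pair log2 differences used a prior count of 2.

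The 8 genes and the gene lists were chosen with earlier results of these data known. Named genes were the 8, list genes past the threshold, up to 4 per list with the largest fold change among those of 1 sign in both pairs, up to 2 with the largest gap between pairs, and standard pathway genes. Alternatives were DESeq2 1.42.0, RLE size factors, no block, no filter, other library sizes, a prior count of 0.5, the scores, and leaving out each library. Transcript lengths came from GENCODE 29. Promoters came from RefSeq. Values of some genes in the lists are not reported here.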

Additional observations from a re-analysis of the deposited data

Results flagged for a closer look

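HLA-DRB1 is given a closer look because its difference between invasive and control had opposite signs in the pairs. It was 0.17 (pair 1) and −0.51 (pair 2) on the log2 scale, and both counting intervals of the ratio lay off 1 (1.04 to 1.22 and 0.629 to 0.784). With 1 library on each side of a pair, the difference between the pairs was not tested.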

How the results depend on the processing

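Each population is 1 library, and the class II values move with single libraries. With no replicate block, edgeR called 2 genes higher and 0 lower, against 34 and 5 with the pairing. RLE size factors with the block gave 80 and 9, DESeq2 with the block 142 and 29, and no filter on low counts 760 and 693. Leaving out 1 library at a time, without the block, gave 3 to 55 higher and 0 to 61 lower. Of the 8 genes, 1 was called with no filter (HLA-DPA1, −0.68, adjusted p = 0.001 in edgeR), and 0 to 1 when a library was left out (HLA-DRA without invasive 1, −1.77, adjusted p = 0.0409 in edgeR). Of the pathway genes, 8 were called with no filter and 0 to 1 when a library was left out (CTSS without control 1). The cause was not tested. Without the block, the 8 fitted values had a median of −0.29 with all 4 libraries. It was −0.11 without control 1, where 2 values changed sign, and −0.86 without invasive 1, where 1 did. Without control 2 it was −0.47, with 1 change of sign, and without invasive 2 it was 0.20, with 4. With all 4 libraries, the replicate block changed no call on the 8 genes or the pathway genes. With and without it, 7 of the 8 fitted values were below 0. With the authors' scores, HLA-DMA in pair 2 was −0.06 and HLA-DPB1 in pair 1 was −0.02, both opposite in sign to the count-based values, and HLA-DMB has no score in pair 2. Each of the 8 symbols has 1 row, so summing rows did not apply. Low counts left HLA-DOA, HLA-DOB and HLA-DQB2 untested and gave wide counting intervals for HLA-DMB (31 counts in invasive 2) and HLA-DQA1 (3 counts).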
